A study of Ovis aries with 16 samples.

Results

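The hypoxia-inducible factor genes and a set of their known target genes were examined in the hypothalamus of fetal sheep, collected 24 h after the onset of a 30 min episode of hypoxia or normoxia. Members were all array probes named HIF1A, EPAS1, VEGFA, EPO, LDHA, ADM or HMOX1, by the array design or by the current symbol of their RefSeq accession, together with all probes named as glucose transporters of the SLC2A (GLUT) family. The rule found 21 probes for 11 genes, out of 15008 probes and 1035 gene names on the array. The genes were HIF1A, EPAS1, VEGFA, EPO, LDHA and the transporters SLC2A1, SLC2A2, SLC2A3, SLC2A4, SLC2A5 and SLC2A8. No probe carried the name ADM or HMOX1, so these genes are not analysed here.

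The 4 groups compared were of late-gestation Suffolk fetuses, all chronically catheterized. NC fetuses (n = 3) received intravenous saline and then normoxia. NK fetuses (n = 4) received ketamine, which blocks the NMDA-type glutamate receptor, and then normoxia. HC fetuses (n = 5) received saline and then hypoxia, produced by nitrogen delivered to the trachea of the ewe. HK fetuses (n = 4) received ketamine and then hypoxia. All groups then had 23.5 h of normoxic recovery, so the arrays describe the recovery period and not the episode itself. Each array held the RNA of a different fetus. Many fetuses were twins, and which of them shared a ewe is not labelled, so the p-values measure the spread between these samples and take no account of relatedness.

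Cells sense oxygen through hydroxylase enzymes that mark the alpha subunits of hypoxia-inducible factor for degradation when oxygen is plentiful. HIF1A and EPAS1 (also called HIF-2 alpha) encode such subunits, and their control acts mainly on the protein, which these arrays did not measure. When oxygen falls, the stabilized subunits pair with the partner ARNT and raise transcription of genes for glucose uptake (SLC2A1 and SLC2A3), lactate production (LDHA), blood vessel growth (VEGFA) and red cell formation (EPO). In brain, SLC2A1 serves the blood-brain barrier and glia, SLC2A3 is the main neuronal glucose transporter, and SLC2A5, a fructose transporter, is known from microglia.

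Each gene was read by 2 probes of 60 bases, except SLC2A2 with 1. The pairs of probes gave different degrees of independence. Both LDHA probes and both SLC2A3 probes lay on separate stretches of their transcript, while the VEGFA probes were the same sequence moved by 1 base. The probe sequences of the oxygen-sensing subunit HIF1A, of LDHA and of VEGFA are shown because the results below rest on the agreement or sharing within each pair. Sequences are written 5′ to 3′ as in the array design, and capitals mark the bases that both probes of the gene share.
HIF1A A_70_P041637: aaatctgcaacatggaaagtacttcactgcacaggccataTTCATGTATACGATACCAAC
HIF1A A_70_P041636: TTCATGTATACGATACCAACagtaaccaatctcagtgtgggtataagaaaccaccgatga
LDHA A_70_P016387: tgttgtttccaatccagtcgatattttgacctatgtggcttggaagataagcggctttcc
LDHA A_70_P016386: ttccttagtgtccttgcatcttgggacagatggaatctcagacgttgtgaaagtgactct
VEGFA A_70_P050922: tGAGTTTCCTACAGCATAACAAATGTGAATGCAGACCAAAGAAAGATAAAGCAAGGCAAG
VEGFA A_70_P050921: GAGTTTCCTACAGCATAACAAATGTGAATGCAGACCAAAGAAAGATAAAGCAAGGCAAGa

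The HIF1A probes shared 20 bases at the end of the upstream probe and the start of the downstream probe. The LDHA probes shared none, with starts 457 bases apart, and the VEGFA probes shared 59. For SLC2A1, SLC2A4, SLC2A8, EPAS1 and EPO the probes also shared 59 bases, for SLC2A5 they shared 20, and for SLC2A3 they shared none. Across the 16 arrays, the levels of the 2 probes of a gene correlated at a Pearson r of 0.994 for VEGFA, 0.983 for SLC2A1, 0.981 for SLC2A3, 0.967 for LDHA and 0.882 for HIF1A. The EPAS1 probes correlated at only 0.068 although they differ by 1 base at each end.

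Each value is a log2 signal minus the 75th percentile of its array, here called the relative level, and each gene is described by the brighter of its probes unless the other is named. A relative level of 0 is the signal that 75 percent of probes lie below. Levels of different genes are not set against each other, because the signal of a probe depends on its sequence. HIF1A, LDHA, SLC2A1, SLC2A3, SLC2A5, SLC2A8 and VEGFA, 7 of 11 genes, were well above background with both probes on all 16 arrays. EPAS1, SLC2A2 and SLC2A4 were above background on some arrays, and the EPO probes on none. No member was saturated. In all, 19 probes of 10 genes were tested, EPO being left out.

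The arrays were of similar quality. Between 71.7% and 80.6% of all probes were well above background, and the 75th percentile of the signal ranged from 1248 to 1597 intensity units. The arrays came from 2 slides of 8 arrays, each slide holding all 4 groups, and values within each slide are given for the results called. NC3 was the only NC array on slide 2, so any difference from NC within slide 2 rests on that array. All 7 hypothalamic peptide genes of the marker list on the array (OXT, POMC, SST, AGRP, NPY, GNRH1 and PMCH, of 13 listed) were well above background on all arrays, except AGRP, which was so on 2 of 3 NC arrays and on all others. The anterior pituitary list had 6 of its 8 genes on the array, of which 3 were not above background on any NC or NK array, with summed signals of 6.07 to 7.38 in NC, 6.77 to 8.34 in NK, 6.04 to 9.82 in HC and 7.78 to 8.81 in HK, in multiples of the 75th percentile. The HK sums were all above the NC sums. LHB, 1 of 4 tested genes of this list, was called higher in HK than in NK, at 0.21 (limma, unadjusted p = 0.0284), and than in HC, at 0.19 (limma, unadjusted p = 0.0319). No other gene of the list was called in these comparisons. From HC to HK the mean went from -3.37 to -4.17 for PRL, from -6.06 to -6.07 for FSHB and from -2.25 to -1.58 for CGA. The part of pituitary tissue in the member results was not tested.

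To ask what hypoxia alone left behind at 24 h, HC was compared with NC. SLC2A3, HIF1A and LDHA were higher in HC, by about the same amount with each of their probes, and no member was lower. SLC2A3 rose the most, to 2.08-fold, followed by LDHA at 1.51-fold and HIF1A at 1.50-fold. VEGFA, the best known vascular target, did not pass the test. Of 19 member probes, 6 were called higher and 0 lower at an unadjusted p under 0.05, against 8.15% of all 12249 tested probes called in either direction (4.22% higher and 3.93% lower). The arrays of HC and NC did not overlap for 5 member probes, both of SLC2A3, both of HIF1A and A_70_P016386 of LDHA, all higher in HC, against 2.47% of all tested probes. A positive difference was found for 17 of 19 member probes, with a median of 0.35 on the log2 scale against -0.03 over all tested probes. These probes are not separate readings, since the pairs of SLC2A1, SLC2A4, SLC2A8, EPAS1 and VEGFA share 59 of 60 bases. Some positive differences were as small as 0.02 (SLC2A4). By brightest probe, 3 of 10 tested genes were called. No member passed Benjamini-Hochberg adjustment over all tested probes, and neither did any other probe, the smallest adjusted p among members being 0.28 (limma), whereas 64 probes of the array passed when HC5 was left out. Because the tissue was measured in bulk, more cells of a type and more RNA per cell cannot be told apart, here or for any result that follows.

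**Figure D1:**
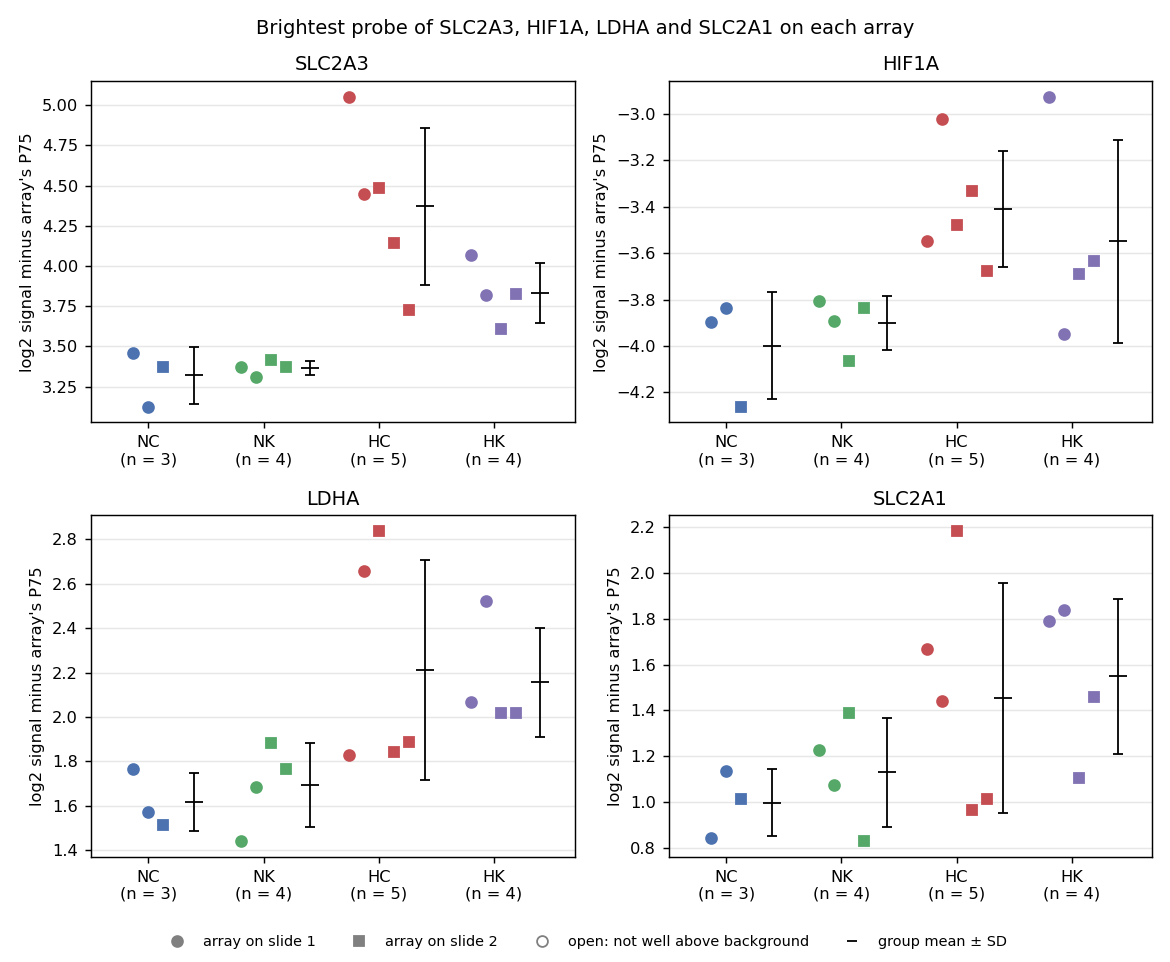
Relative level (log2 signal minus the array's 75th percentile) of SLC2A3, HIF1A, LDHA and SLC2A1 on each array, grouped as NC, NK, HC and HK. Points are arrays with shape by slide, and bars show the group mean and SD. All 5 HC arrays of SLC2A3 lie above all 7 normoxic arrays, whose levels run from 3.12 to 3.46, while SLC2A1 in HC overlaps with NC.

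HIF1A encodes the oxygen-regulated alpha subunit of the factor. Its relative level was -3.90, -3.84 and -4.26 on the NC arrays and -3.81, -3.89, -4.06 and -3.84 on the NK arrays. It was -3.55, -3.02, -3.48, -3.33 and -3.68 on the HC arrays and -2.93, -3.95, -3.69 and -3.64 on the HK arrays. Every HC array was above every normoxic array, whereas the HK arrays ranged from the highest level of all (HK1) down into the normoxic range (HK2).

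HIF1A was 0.59 ± 0.20 (SE) log2 units higher in HC than in NC, a 1.50-fold difference (limma, unadjusted p = 0.0112, adjusted p = 0.459). The other probe, A_70_P041636, gave 0.64 ± 0.19 (limma, unadjusted p = 0.00444, adjusted p = 0.383). With slide as a block the difference was 0.65 for the brighter probe. Within slide 1 it was 0.58 and not called (limma, unadjusted p = 0.151), and within slide 2, against NC3 alone, it was 0.77. The HIF1A difference was 0.52 with quantile normalization alone, 0.28 with normexp correction and quantile normalization, and 0.23 in the authors' normalized table, all called. The cause of the smaller values was not tested. Without NC3 the brighter probe was no longer called, at 0.46.

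Between HK and NK, which asks whether the hypoxia difference was present under ketamine, A_70_P041636 of HIF1A was 0.51 ± 0.18 higher (limma, unadjusted p = 0.0148, adjusted p = 0.442). It was 1 of 2 member probes among 19 called in this comparison, both higher, against 8.69% of all tested probes called in either direction and 2.38% called higher. The brighter HIF1A probe gave 0.35 and was not called (limma, unadjusted p = 0.0935). For A_70_P041636 the difference was 0.65 within slide 1 and 0.37 within slide 2, the latter not called (limma, unadjusted p = 0.0706), and without HK1 it was 0.37 and not called. Ketamine made no called difference to HIF1A after hypoxia. HK minus HC was -0.14, with a 95% interval from -0.54 to 0.26. The order of the group means was HC, HK, NK, NC at -3.41, -3.55, -3.90 and -4.00, and no neighbours in that order differed by the test. The interaction (HK minus HC, less NK minus NC) was not called for either HIF1A probe.

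EPAS1 encodes the related alpha subunit that is prominent in endothelium. Its brighter probe, well above background on 13 arrays, lay between -5.02 and -5.76 on the HC arrays, between -5.36 and -5.56 on the NC arrays and between -5.09 and -5.71 on the NK arrays. The HK arrays were at -5.28, -5.53, -5.58 and -4.14, so that HK4 stood alone above all others. The difference between HC and NC was 0.21, with a 95% interval from -0.40 to 0.81 (limma, unadjusted p = 0.471). In the other EPAS1 probe, HK4 was at -5.37 and NK2 stood out instead, at -3.73, with all others between -5.15 and -5.64. No EPAS1 probe was called in any of the 7 contrasts of the design. A further pair of probes, named EPAS and described as endothelial PAS domain protein 1, fell outside the rule and was above background on all 16 arrays. Neither EPAS probe was called between HC and NC, where they differed by 0.06 and 0.04.

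LDHA encodes the A subunit of lactate dehydrogenase, which turns pyruvate into lactate. Its relative level was 1.77, 1.57 and 1.51 in NC and 1.44, 1.69, 1.88 and 1.76 in NK. In HC it was 1.83, 2.66, 2.84, 1.84 and 1.89, and in HK it was 2.07, 2.52, 2.02 and 2.02. HC2 and HC3 were far above the other 3 HC arrays, which lay just above the NC arrays. The HK arrays all lay above both normoxic groups.

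LDHA was 0.59 ± 0.23 higher in HC than in NC, or 1.51-fold (limma, unadjusted p = 0.0223, adjusted p = 0.526). Its other probe, from a separate stretch of the transcript, gave 0.60 ± 0.26 (limma, unadjusted p = 0.0376, adjusted p = 0.574), with HC5 and NC1 at the same level of 0.26. The difference was 0.61 with slide as a block and 0.57 within slide 1, where it was not called (limma, unadjusted p = 0.115). Within slide 2, against NC3 alone, it was 0.68. Leaving out HC2, NC2 or NC3 removed the call for the brighter probe, with differences from 0.48 to 0.57. Without both HC2 and HC3 the difference was 0.24 and not called (limma, unadjusted p = 0.138).

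Between HK and NK, LDHA differed by 0.46 (limma, unadjusted p = 0.0571) and 0.49 (limma, unadjusted p = 0.075) for the 2 probes, neither called although the arrays did not overlap, as was so for 1.6% of all tested probes in that direction. HK minus HC was -0.05, with a 95% interval from -0.51 to 0.40. The group means ran HC, HK, NK, NC at 2.21, 2.16, 1.69 and 1.62, and no neighbours differed by the test. Averaged over ketamine, hypoxia raised LDHA by 0.53 (limma, unadjusted p = 0.00545) and 0.54 (limma, unadjusted p = 0.00985).

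SLC2A3, or GLUT3, carries glucose into neurons. Its relative level was 3.46, 3.12 and 3.37 in NC and 3.37, 3.31, 3.42 and 3.37 in NK. In HC it was 5.05, 4.45, 4.49, 4.14 and 3.73, and in HK it was 4.07, 3.82, 3.61 and 3.83. The 7 normoxic arrays lay within a narrow band with no separation between NC and NK, and every hypoxic array was above that band. HC1 was highest, and HC5 fell within the HK range.

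SLC2A3 was 1.05 ± 0.22 higher in HC than in NC (limma, unadjusted p = 0.000252, adjusted p = 0.28), a 2.08-fold difference with a 95% interval from 1.51-fold to 2.86-fold. The separate probe A_70_P051107 gave 0.93 ± 0.22 (limma, unadjusted p = 0.000767, adjusted p = 0.342). The difference was 1.46 within slide 1 and 1.11 with slide as a block, both called. Within slide 2, against NC3 alone, it was 0.75, and 0.58 for A_70_P051107. Leaving out any 1 array kept the call, with differences from 0.88 to 1.21. Without HC5, the HC array nearest to the NC arrays, both SLC2A3 probes also passed adjustment over all tested probes, at 1.21 (limma, adjusted p = 0.0238) and 1.08 (limma, adjusted p = 0.0274).

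SLC2A3 was the only member called between HK and HC, the comparison of hypoxic fetuses with and without ketamine. It was 0.54 ± 0.20 lower in HK, at 0.687 of the HC level (limma, unadjusted p = 0.0163, adjusted p = 0.685), and the other probe was 0.49 lower (limma, unadjusted p = 0.0262, adjusted p = 0.685). These were 2 of 19 member probes, against 7.04% of all tested probes called in either direction and 3.79% called lower, and the median difference was -0.14 over member probes and 0.03 over all tested probes. Within slide 1 the brighter SLC2A3 probe differed by -0.81 and within slide 2 by -0.40, the latter not called (limma, unadjusted p = 0.137), and the block gave -0.56. Of 3 macrophage markers tested, CD14 alone was called lower in HK than in HC, by a difference of -1.35. The other markers were not called. ITGAM had means of -4.32 in HC and -4.40 in HK, and CTSS of 1.68 and 1.45. The part of these markers in the SLC2A3 result was not tested. The call of the brighter probe was lost in the authors' normalized table, at -0.52 (limma, unadjusted p = 0.0612), with normexp correction, at -0.51 (limma, unadjusted p = 0.0589), and without HK3, at -0.47 (limma, unadjusted p = 0.0514). The other probe lost its call without any 1 of HC1, HC2, HC3, HK3 and HK4, with differences from -0.65 to -0.37 over all arrays left out in turn.

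Between HK and NK, SLC2A3 was still 0.46 ± 0.21 higher after hypoxia (limma, unadjusted p = 0.0433, adjusted p = 0.552), and the other probe gave 0.43 (limma, unadjusted p = 0.057). The arrays of HK and NK did not overlap for either probe, as was so for 1.6% of all tested probes in that direction. The difference was 0.61 within slide 1, 0.32 within slide 2, where it was not called (limma, unadjusted p = 0.255), and 0.46 with the block. The brighter probe lost its call without any 1 of 10 of the 16 arrays, with differences from 0.38 to 0.54. The SLC2A3 group means ran HC, HK, NK, NC at 4.37, 3.83, 3.37 and 3.32, and HC from HK and HK from NK differed by the test while NK from NC did not.

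The test of whether ketamine changed the SLC2A3 difference between hypoxia and normoxia is the interaction. It was -0.59 ± 0.30 (limma, unadjusted p = 0.0699) and -0.49 (limma, unadjusted p = 0.123) for the 2 probes, neither called. It was called in only some of the alternatives. These included slide as a block, at -0.65 (limma, unadjusted p = 0.0406), and slide 1 alone, at -0.85 (limma, unadjusted p = 0.0478). It was also called without HC5, the HC array nearest to the NC arrays, at -0.75 (limma, unadjusted p = 0.00816). No member was called for the interaction in the design as stated, against 3.8% of all tested probes.

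SLC2A1, or GLUT1, is the transporter of the blood-brain barrier and of glia. Its relative level was 0.84, 1.13 and 1.01 in NC, 1.23, 1.08, 1.39 and 0.83 in NK, 1.67, 1.44, 2.18, 0.97 and 1.01 in HC and 1.79, 1.84, 1.11 and 1.46 in HK. HC4 and HC5 lay within the NC range, and the other 3 HC arrays were above it. The difference between HC and NC was 0.46 ± 0.25 and not called, with a 95% interval from -0.08 to 1.00 (limma, unadjusted p = 0.0917), although within slide 1 it was 0.57 and called (limma, unadjusted p = 0.0137).

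Averaged over the saline and ketamine groups, hypoxia raised SLC2A1 by 0.44 ± 0.18, or 1.36-fold (limma, unadjusted p = 0.0259, adjusted p = 0.306). The other SLC2A1 probe, moved by 1 base, gave 0.41 (limma, unadjusted p = 0.0552). The call was lost without NC1, NK4, HK1 or HK2, at differences from 0.39 to 0.40. HK and HC differed by 0.09, with a 95% interval from -0.40 to 0.59. The means ran HK, HC, NK, NC at 1.55, 1.45, 1.13 and 1.00, and no neighbours differed by the test.

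The hypoxia difference averaged over ketamine took in 4 member genes, SLC2A3, HIF1A, LDHA and SLC2A1, and 7 of 19 probes, all higher. Of all tested probes, 13.3% were called in this contrast, 5.12% higher and 8.21% lower. SLC2A3 was 0.76 ± 0.15 higher (limma, unadjusted p = 0.000184, adjusted p = 0.176) and HIF1A was 0.47 higher (limma, unadjusted p = 0.00481, adjusted p = 0.217). The median over member probes was 0.29, against -0.02 over all tested probes. This average draws on the same arrays as the separate comparisons and adds no further samples.

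**Figure D2:**
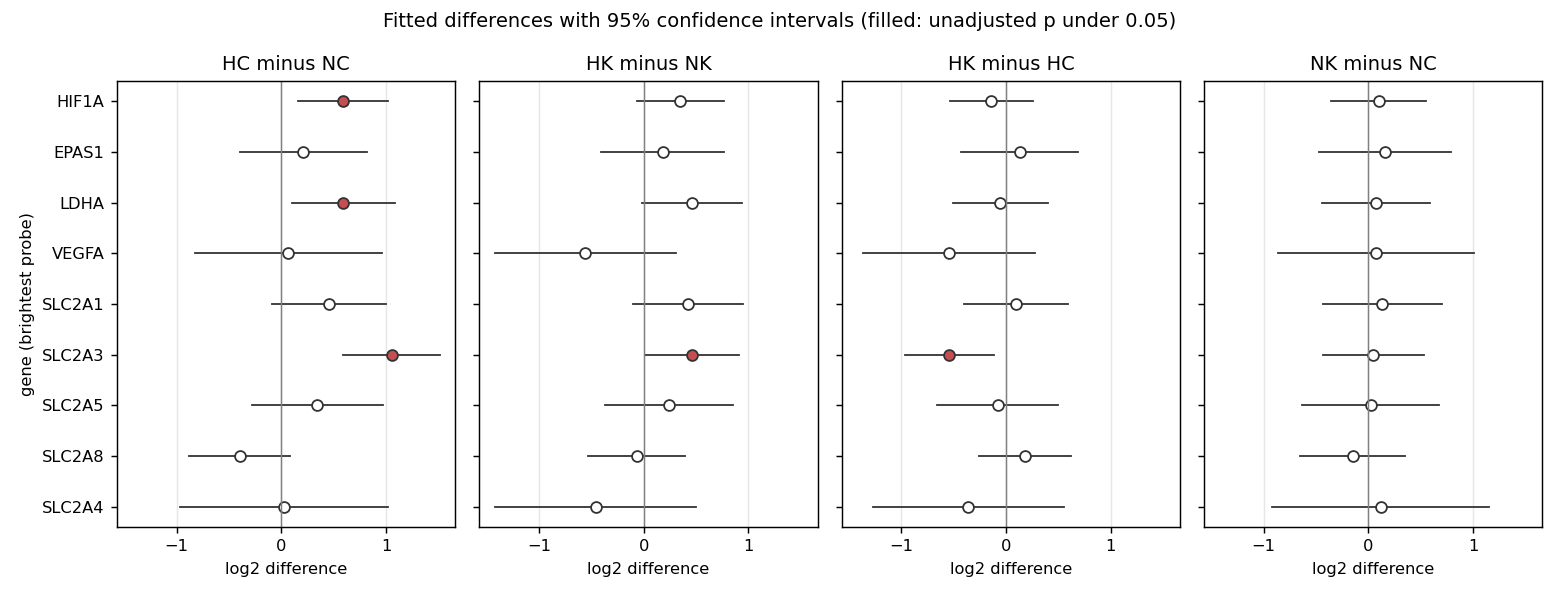
Fitted log2 differences of 9 of the 10 tested genes, each by its brightest probe and without SLC2A2 (called in NK minus NC, where only a bound is given), in HC minus NC, HK minus NK, HK minus HC and NK minus NC. Lines are 95% intervals and filled points have an unadjusted p under 0.05. SLC2A3 is filled in the first 3 panels, above 0 at 1.05 and 0.46 and below 0 at -0.54, and none of the 9 genes shown is filled in NK minus NC.

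SLC2A5, or GLUT5, transports fructose and is found in microglia. Its relative level was -0.10, -0.03 and -0.10 in NC and lay between -0.31 and 0.09 in NK and between 0.00 and 0.29 in HK. In HC it was -0.26, 1.14, 0.40, 0.65 and -0.61. HC2, HC4 and HC3 were the highest of all 16 arrays and HC5 the lowest, so HC enclosed every other group. HC minus NC was 0.34, with a 95% interval from -0.28 to 0.97 (limma, unadjusted p = 0.26), and no comparison of SLC2A5 was called.

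SLC2A8, or GLUT8, is a transporter that resides mostly inside the cell. Its group means ran NC, NK, HK, HC at 0.31, 0.16, 0.09 and -0.09. HC2 and HC3 were the lowest arrays, at -0.64 and -0.36, and the other HC arrays were at 0.22, 0.19 and 0.15, within the NC range of 0.07 to 0.56. The difference between HC and NC was -0.40 ± 0.22, with a 95% interval from -0.88 to 0.08 (limma, unadjusted p = 0.0967). Neither that difference nor any between neighbours in the order passed the test.

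SLC2A4, the insulin-responsive transporter GLUT4, was above background on 14 arrays with each probe and was not called in any contrast of the design. HC minus NC was 0.02 for the brighter probe, with a 95% interval from -0.97 to 1.01, and its arrays ranged from -3.81 to -5.77 over all groups. SLC2A2, the liver and islet transporter GLUT2, was above background on 7 arrays, of which 3 were NK, 3 were HC, 1 was HK and 0 were NC. Its NK levels were -5.83, -3.95, -4.20 and -6.54 and its NC levels -7.00, -7.99 and -7.37, without overlap, against 1.57% of all tested probes higher in NK without overlap.

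Ketamine under normoxia made a called difference to SLC2A2 and to no other member (1 of 19 probes, against 1.09% of all tested probes). Since no NC array was well above background for SLC2A2, only a bound can be given, at least 1.70-fold higher in NK than in NC. The call came from the signals as read (limma, unadjusted p = 0.0282, adjusted p = 1) and is not a test of the bound. The bound sets the mean of the 4 NK arrays, of which NK1, NK2 and NK3 were above background, against the higher of the probe's signal and the lowest signal above background on each NC array. The call was lost without NC2, NC3, NK2 or NK3, and in the authors' normalized table, with normexp and with quantile normalization. The choroid plexus markers TTR and AQP1 had their highest summed signals on NK2 and HC2, at 11.1 each, and on NK3, at 6.07. These arrays were also high for SLC2A2, at -3.95, -4.30 and -4.20. NC2 came next at 4.8, although SLC2A2 was at -7.99 there. The part of choroid plexus tissue in the SLC2A2 result was not tested. For SLC2A3, NK minus NC was 0.05, with a 95% interval from -0.44 to 0.53, and for HIF1A it was 0.10, from -0.35 to 0.55. Averaged over hypoxia, ketamine made no called difference to any member, against 2.02% of all tested probes, the smallest unadjusted p being 0.073 (limma) for SLC2A2.

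VEGFA encodes the main growth factor for blood vessels. Its relative level was -1.57, -1.70 and -1.34 in NC and -1.43, -1.52, -1.44 and -1.46 in NK. In HC it was -1.35, -2.48, -0.88, -1.69 and -0.96, and in HK it was -2.77, -0.66, -2.23 and -2.43. The normoxic arrays formed a narrow band, and the hypoxic arrays lay on both sides of it, with HC3, HC5 and HK2 above, HC2, HK1, HK3 and HK4 well below, and HC1 and HC4 inside it.

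HC and NC differed in VEGFA by 0.07, with a 95% interval from -0.83 to 0.96 (limma, unadjusted p = 0.875). HK minus HC was -0.55, with a 95% interval from -1.37 to 0.27 (limma, unadjusted p = 0.175), and the slides differed in direction, with 0.20 within slide 1 and -1.15 within slide 2. HK minus NK was -0.56 (limma, unadjusted p = 0.189). Without HK2, the HK array above the band, the interaction was called at -1.08 (limma, unadjusted p = 0.0227). The group means ran NK, HC, NC, HK at -1.46, -1.47, -1.54 and -2.02, and no neighbours differed by the test.

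The scatter of VEGFA among hypoxic arrays is given as a description without a test. Within the hypoxic groups the SD was 0.78 log2 units, and within the normoxic groups it was 0.12, a ratio of 6.48. Only 0.427% of all tested probes had a ratio as large, and the median ratio over all tested probes was 1.21. The ratio was 3.93 for SLC2A5, 3.35 for SLC2A3 and 2.42 for LDHA, met or passed by 2.42%, 4.18% and 10.7% of tested probes. For SLC2A8 it was 1.09, below the median. The pair of VEGFA probes shares all but 1 base at each end, so their common pattern is not a check by independent sequence.

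EPO encodes erythropoietin, the hormone of red cell formation. Neither EPO probe was well above background on any of the 16 arrays, and no comparison was made. This states a detection limit of the array and not that the transcript was absent.

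**Figure D3:**
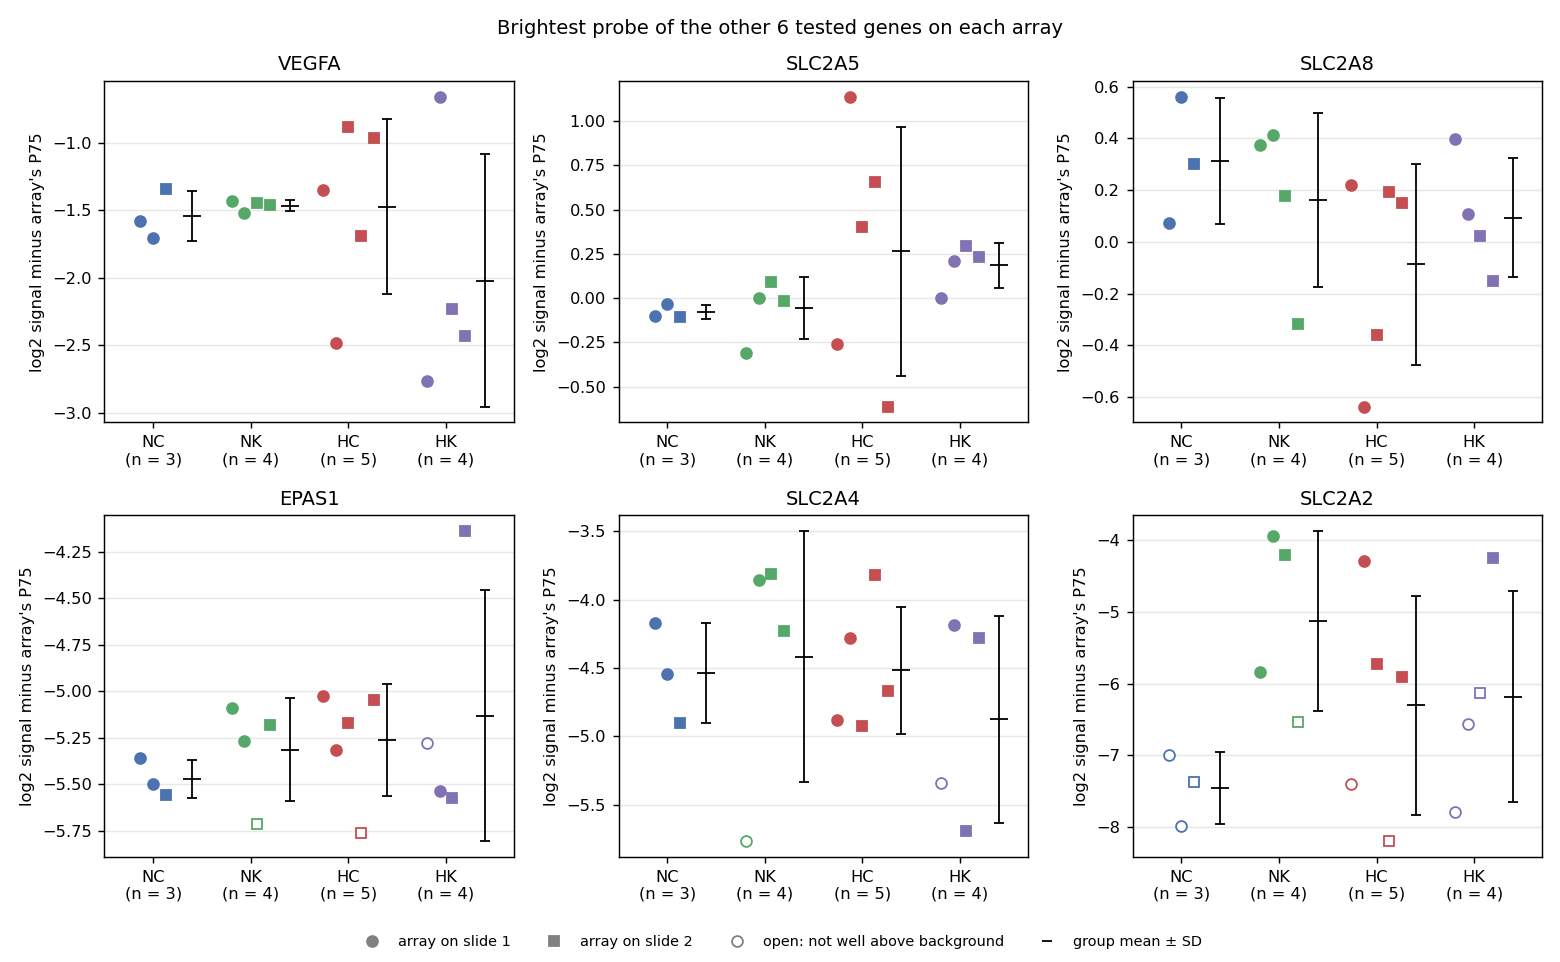
Relative level (log2 signal minus the array's 75th percentile) of VEGFA, SLC2A5, SLC2A8, EPAS1, SLC2A4 and SLC2A2 on each array, grouped as NC, NK, HC and HK, with group mean and SD as bars, shape by slide, and open points where the probe was not well above background. The 7 normoxic VEGFA arrays lie between -1.70 and -1.34, and the hypoxic arrays run from -2.77 to -0.66.

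Other genes of the pathway were taken from a list of 95 oxygen sensors, partners and reported targets that are no members, of which 30 had a tested probe. Between HC and NC, 4 of 30 were called higher and 1 lower, against 4.22% and 3.93% of all tested probes, with a median difference of 0.06. The higher genes were HIF3A, a further alpha subunit, at 0.90 (limma, unadjusted p = 0.017), PFKL, a phosphofructokinase of glycolysis, at 0.25 (limma, unadjusted p = 0.0272), NOS2, the inducible nitric oxide synthase, at 0.68 (limma, unadjusted p = 0.0155), and IGFBP3, an insulin-like growth factor binding protein, at 2.04 ± 0.62 (limma, unadjusted p = 0.00548). The VEGF receptor KDR was lower, at -0.67 (limma, unadjusted p = 0.0297). HIF3A was well above background on 1 of 3 NC arrays and on all 5 HC arrays. NOS2 was so on 2 of 3 NC and all 5 HC arrays, and KDR on all 3 NC and 3 of 5 HC arrays.

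The other comparisons called fewer genes of that list. Between HK and HC, 0 of 30 were higher and 2 lower, near the 7.04% of all tested probes called in either direction (3.79% lower), with a median of -0.06. NOS2 was lower by 0.63 (limma, unadjusted p = 0.0148), and was well above background on 3 of 4 HK arrays. CP, the iron oxidase ceruloplasmin, was not well above background on any HK array. It was thus at least 1.65-fold lower than in HC, where 4 of 5 arrays measured it. The CP call came from the signals as read (limma, unadjusted p = 0.0106, adjusted p = 0.685) and is not a test of this bound. For NOS2 the interaction was called as well, at -0.94 (limma, unadjusted p = 0.0166), 1 of 30, against 3.8% of all tested probes. Between HK and NK only PFKL was called, at 0.22 (limma, unadjusted p = 0.0422). This was 1 of 30, against 8.69% of all tested probes called in either direction and 2.38% called higher. Between NK and NC none of the 30 was called, against 1.09% of all tested probes. Averaged over ketamine, hypoxia raised PFKL, IGFBP3 and the vascular ligand ANGPT2, 3 of 30, against 13.3% of all tested probes called in either direction and 5.12% called higher, with a median of 0.01 over the list. No gene of the list passed adjustment over all tested probes.

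Marker genes of other cell types moved with some members. The microglia and macrophage markers, of which 3 of 10 listed were on the array (CD14, ITGAM and CTSS), had a summed signal of 2.60 to 3.12 in NC, 2.74 to 3.06 in NK and 2.23 to 3.41 in HK, in multiples of the 75th percentile. CD14 and CTSS were well above background on all arrays, but ITGAM on only 2 of 3 NC and 2 of 4 NK arrays. In HC the sum was 2.31, 7.38, 3.78, 3.57 and 2.89, so that HC2 stood far above all other arrays, followed by HC3. HC2 was also the highest array of SLC2A5 and of HIF1A in HC, and the second highest of LDHA. CD14, at 1.34 (limma, unadjusted p = 0.0407), and ITGAM, at 0.74 (limma, unadjusted p = 0.0412), were called higher in HC than in NC. CTSS was not called there, with means of 1.41 in NC and 1.68 in HC. The summed signal was mostly CTSS, since the NC means of CD14 and ITGAM were -2.84 and -5.06. CD14 was called lower in HK than in HC, at -1.35 (limma, unadjusted p = 0.0274), the comparison in which SLC2A3 was lower too. ITGAM and CTSS were not called there. HC1, the highest array of SLC2A3, had the lowest sum of these markers in HC. The part of these markers in the member results was not tested. Without HC2 and HK1, the HC and HK arrays that a fit of array quality weighted least, SLC2A3 and HIF1A were still called between HC and NC, and LDHA was not. For astrocytes (4 of 6 markers on the array) the sum was 49.3 to 61.8 in NC and 47.6 to 62.7 in HC, and for endothelium (5 of 9) it was 0.915 to 1.1 in NC, 0.946 to 1.19 in NK, 0.693 to 1.50 in HC and 0.918 to 1.59 in HK. The endothelial sum was highest on HK1 (1.59), HC1 (1.50), HK2 (1.39) and HC3 (1.27), which were also the 4 highest arrays of SLC2A1, and its part in the SLC2A1 result was not tested. No endothelial marker was called higher in the hypoxia difference averaged over ketamine (0 of 4 tested). Between HC and NC, KDR of this list was called lower, at -0.67 (limma, unadjusted p = 0.0297). The endothelial sum was mostly PECAM1, whose NC mean was -0.10, against -4.25 for FLT1, -5.03 for KDR and -7.14 for SELE. No neuron or oligodendrocyte marker of the lists was on the array.

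Genes with the most similar pattern were sought among 967 named probes of other genes over the 16 arrays, by Pearson correlation, as a description. All points share the arrays, their slides and the group differences. SLC2A3 was most like NFKBIA (r = 0.871), an inhibitor of NF-kappa B, LOC100037678 (r = 0.867), described as a serine protease 23 precursor, and PDXK (r = 0.812). LDHA was most like SLC11A1 (r = 0.868), a metal transporter of phagocytes, and IGFBP3 (r = 0.833). SLC2A5 was most like FCER1G (r = 0.899), CD86 (r = 0.834) and CYBA (r = 0.79). HIF1A was most like LOC100191065 (r = 0.941) and ABCB1 (r = 0.862), SLC2A1 most like the probe named VEGFR-1 (r = 0.8), SLC2A8 most like TF (r = 0.901), and VEGFA most like DKC1 (r = 0.844).

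**Figure D4:**
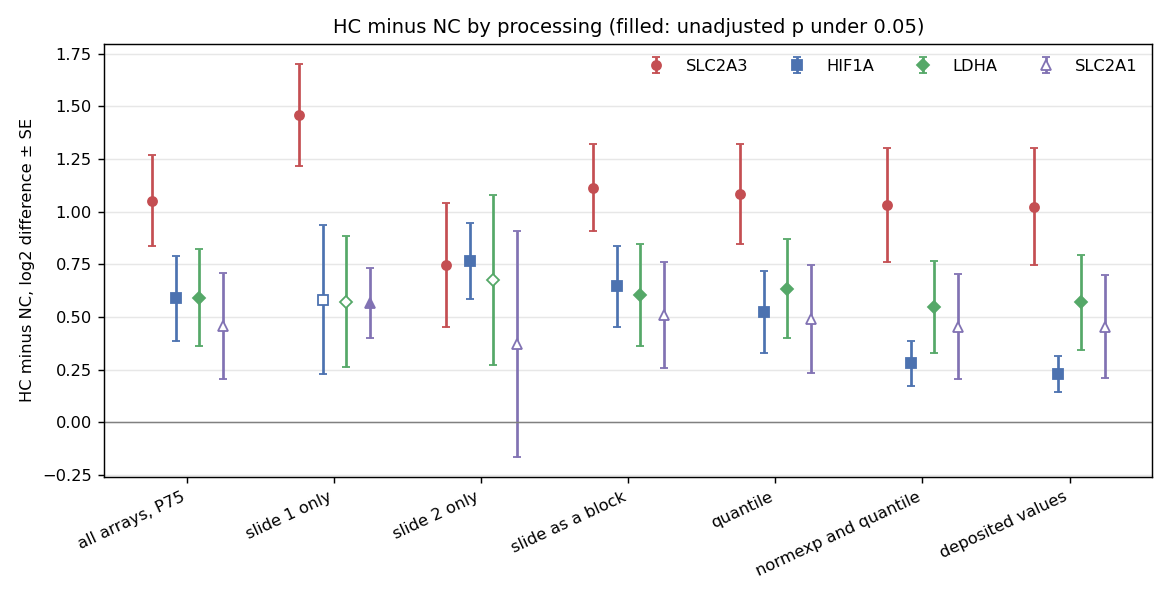
Log2 difference between HC and NC for SLC2A3, HIF1A, LDHA and SLC2A1 with all arrays, within each slide, with slide as a block and under other normalizations. Error bars are the SE and filled points have an unadjusted p under 0.05. SLC2A3 runs from 0.75 to 1.46, while HIF1A drops to 0.23 in the deposited values. The points within slide 2 are set against NC3 alone.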

How the data were processed

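Cyanine 3 labelled RNA from 16 fetal hypothalami was hybridized to 1-color Agilent sheep arrays. Per the file headers, the deposited intensity values were written by Feature Extraction 10.1.1.1, with background subtracted and spatial trends removed, and the authors had not normalized them between arrays. The authors also deposited log2 values, rebuilt here to within 5e-09 by normexp correction of median signals and quantile normalization. Control spots (536 of 15744) and outlier spots (0.0801% of the rest) were left out. Log2 signals were taken relative to their own array's 75th percentile and averaged over the spots of a probe. The test covered the 12249 of 15008 probes that exceeded background clearly on 3 or more arrays. All 16 arrays entered a single fit with a mean per group, in limma 3.58.1 in R 4.3.3 (13.7 degrees of freedom) and two-sided tests. A probe counted as called at an unadjusted p under 0.05, which the study's methods also used, and Benjamini-Hochberg adjustment ran over all tested probes. The procedure was checked on simulated data.

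Gene names are those of the array design, with 726 of 750 RefSeq accessions updated from a table of the assembly ARS-UI_Ramb_v3.0. The members, the pathway and marker lists and the comparisons were chosen with earlier results of these data known. Named genes were all members, the called genes of the pathway list and the 3 most correlated genes of each member above background on all arrays, of which the closest are given. A pathway gene was read by its brightest probe. The number of arrays limits the precision. Alternatives were another background correction or normalization, other filters, slide or replicate number in the fit, array weights and leaving out arrays. Probe positions on the genome were not used here.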

Additional observations from a re-analysis of the deposited data

Results flagged for a closer look

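Single arrays far from the rest of their group were sought in 57 sets of 4 or 5 arrays of a member probe, and 2 were found, where chance gives about 1 in 20. EPAS1 probe A_70_P014652 was at -3.73 on NK2, with the nearest NK array at -5.32, so that the gap took 0.883 of the range of the group. The EPAS1 probe moved by 1 base was at -5.27 on the same array. LDHA probe A_70_P016386 was at 2.52 on HK2, with the nearest HK array at 2.07 and a gap of 0.903 of the range, and the separate LDHA probe was also highest in HK on HK2, at 1.13.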

How the results depend on the processing

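No called member difference reversed under any alternative, while some that were not called did, such as VEGFA between HK and HC within slide 1. The number of member genes called, by brightest probe, was 3 for HC against NC and 5 with a replicate block. For HK against HC it was 1, but 0 with normexp correction, 0 in the deposited values, 0 with only the 2 groups fitted and 2 with array weights. For NK against NC it was 1, but 0 with quantile normalization, with normexp, in the deposited values, on probes above background on all arrays and within either slide. For HK against NK it was 1, but 0 with quantile normalization, with normexp, in the deposited values and without HC2 and HK1, and 2 within slide 1, with only the 2 groups fitted and with array weights. For hypoxia averaged over ketamine it was 4, and 2 within slide 2. For ketamine averaged over hypoxia it was 0, and 1 within slide 2, with the replicate block, with array weights, without HC2 and HK1 and without HC2 and HC3. For the interaction it was 0, and 1 with slide as a block, within slide 1, with the replicate block and with array weights. These counts do not show that the same gene was called in each setting. Within slide 2, SLC2A3 was not called between HK and HC or between HK and NK. NC3 was the only NC array there. The cause of these shifts was not tested.

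Leaving out 1 array at a time gave 1 to 5 genes for HC against NC (1 without NC3, 2 without NC2 or HC2, 4 without HC4 and 5 without HC5), 0 to 2 for HK against HC, 0 to 1 for NK against NC, 0 to 2 for HK against NK, 3 to 5 for hypoxia averaged, 0 to 1 for ketamine averaged and 0 to 1 for the interaction. SLC2A3 passed adjustment for hypoxia averaged over ketamine without HC5 (limma, adjusted p = 0.0226) and with the replicate block (limma, adjusted p = 0.0306). The arrays left out in pairs were chosen after the data had been seen. Replicate numbers were not treated as pairs. Of 21 same-number pairs of arrays from different groups, 15 had deviations correlated above 0.1 (median 0.224). Other pairs on the same slide had a median of 0.208. Arrays of the same number always shared a slide, so these values cannot decide whether the numbers mark related fetuses. The probes of EPAS1, SLC2A2 and SLC2A4 lay near background, which limits what can be read from them.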
